A study of Medicago truncatula with 160 samples.

Results

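Strains 182 and 89 of the nodule bacterium Sinorhizobium meliloti (Ensifer meliloti in the labels) were compared by the plant transcripts found in nodules of Medicago truncatula host line DZA. The libraries were those of 3 plants inoculated with strain 182 (plants 3305, 3330 and 3485) and of 4 plants inoculated with strain 89 (plants 3275, 3446, 3452 and 3468), which is 7 of the 160 libraries of the series, and the genes were the 49928 M. truncatula genes among the 56121 genes of the count table. A library labelled strain 182 on DZA, that of plant 3406, was left out because it carried the genes of another strain. The study inoculated plants of 2 host lines, DZA and A17, each with 1 of 20 strains, and sequenced RNA from the nodules of 4 plants per strain and host. The groups used here shared greenhouse, potting mix, tissue and library kit, and no mutant, transgene or chemical treatment was named in their labels. Both strains are natural isolates, and each library pooled the nodules of 1 plant.

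In a legume nodule the plant houses rhizobia inside its own cells, in membrane-bound compartments called symbiosomes, and supplies them with carbon in return for fixed nitrogen. Infection is set up by plant receptors, ion channels and transcription factors, and the bacteria are then turned into nitrogen-fixing bacteroids under the influence of plant peptides. Nitrogenase needs molybdenum, iron and sulfur, which the plant must import, and it needs low free oxygen, which the plant keeps low with leghemoglobins.

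By presence or absence, the bacterial transcripts in the count table did not tell the strains apart. Those transcripts come from 1 reference strain, so a gene that the reference lacks could not be seen. Levels are given in CPM, counts scaled to a fixed library total, here of S. meliloti counts after edgeR's correction for library composition (TMM). With a gene called on at 5 CPM or more and off at 0.5 CPM or less, 0 genes were on in all 7 libraries of strain 182, on both hosts, and off in all 8 of strain 89, and 0 genes showed the opposite pattern. Plant 3406 had 19 genes on that were off in the other 7 libraries of strain 182 and 283 genes off that were on in them. Among the libraries used, 1 of strain 89 on A17, that of plant 3514, went against its label in the same way, with 23 genes on and 277 off against the other 14. Without plant 3514, an alternative chosen after seeing the data, both counts of genes specific to 1 strain were again 0, over 7 libraries of each strain. This rule could therefore not show a swap between a plant of strain 182 and one of strain 89, although the levels of 4 bacterial genes differed on DZA. By genes found in libraries of 1 host only, every library fitted its host label. However, 1 of strain 182 on A17, that of plant 3304, also held all 3 genes specific to DZA. These summed to 3.63 CPM of plant counts without TMM scaling, against 13.9 CPM or more in the DZA libraries. No 2 of the 7 libraries shared enough identical counts to be 1 library deposited more than once.

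The nodules of strain 182 gave fewer bacterial counts on average than those of strain 89, but the groups overlapped. S. meliloti took 3.68, 35.04 and 22.2% of all counts in the plants of strain 182, against 56.0, 13.6, 54.8 and 79.5% in the plants of strain 89. One plant of strain 89, 3446, lay below 2 of the 3 plants of strain 182. The means were 20.3 ± 15.8% (SD, n = 3) for strain 182 and 51.0 ± 27.4% (SD, n = 4) for strain 89, a difference of -30.7 percentage points (two-sided exact permutation test over 35 splits, p = 0.171, where the smallest p the design allows is 0.0286). Total plant counts ranged over 33468271 to 47988605 in strain 182 and 9730544 to 44089485 in strain 89, so the plant levels of strain 89 rest on fewer counts in its thinnest library.

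**Figure D1:**
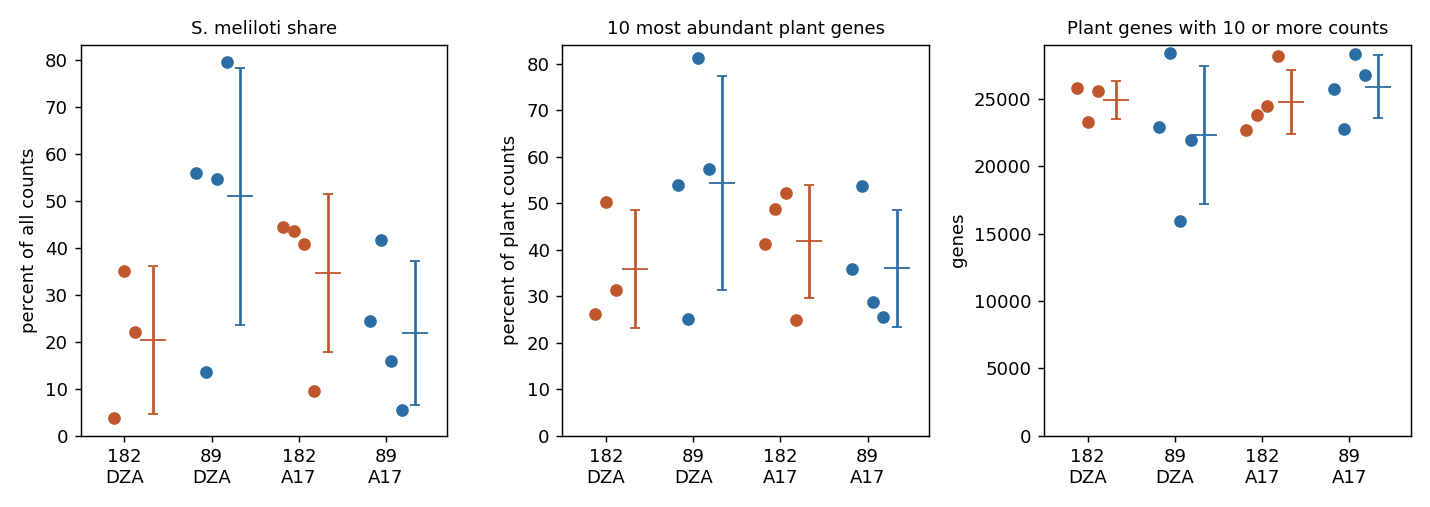
Share of S. meliloti in all counts (percent), share of the 10 most abundant plant genes in plant counts (percent) and number of plant genes with 10 or more counts, for each library of strains 182 and 89 on DZA and on A17. Each point is 1 plant, the horizontal line is the mean and the bar 1 SD, and sideways spread only separates points. The 4 DZA libraries of strain 89 spread from 13.6 to 79.5% S. meliloti, across the 3 of strain 182.

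Libraries of strain 89 on DZA also varied more among themselves in their plant counts. The 10 most abundant plant genes of each library took 26.2, 50.3 and 31.3% of its plant counts with strain 182, against 53.9, 25.0, 81.2 and 57.4% with strain 89. Plant 3452 of strain 89 stood apart: it had 15937 genes with 10 or more counts, where the other 6 libraries had 21988 to 28414. Of the 10 genes most abundant over the 7 libraries together, 1 was at 0 in plant 3452 and took 1.77 to 22.1% of plant counts in the other 6. Another took 10.02% in plant 3452 and 0.181% or less elsewhere. The same pattern occurred in 4 of the 80 DZA libraries. The study's plant reference included ribosomal RNA, and the study reports that the ribosomal share differed widely between samples. Whether the most abundant genes here are ribosomal, and how that bears on the count totals, was not tested. The comparisons below were repeated without plant 3452. Genes of the plastid genome took 0.563 to 0.775% of plant counts with strain 182 and 0.695 to 1.17% with strain 89.

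The nodule identity of the libraries was checked with 16 nodule markers, made up of 9 genes for oxygen transport and 7 named symbiosis genes. Of these, 15 had at least 176 counts in every one of the 7 libraries, and 1, an oxygen transport gene at low level, was at 0 in plant 3452. Summed over the 16 markers, the level was 10501 to 14319 TMM-scaled CPM with strain 182 and 3964 to 7541 with strain 89, without overlap. The 9 oxygen transport genes made up most of this sum in each library, such as 13282 of 14319 CPM in plant 3305 and 3381 of 4053 CPM in plant 3275. The sum therefore largely repeats that of those genes, given below. As an unscaled share of plant counts the 16 markers took 0.963 to 2.42% with strain 182 and 0.137 to 1.36% with strain 89, which overlapped. TMM-scaled CPM are CPM of plant counts after edgeR's correction for library composition. Chlorophyll a-b binding genes, which mark green tissue, summed to at most 0.567 CPM with strain 182 and at most 2.08 CPM with strain 89. In bulk nodules, fewer cells of a type and less RNA per cell cannot be told apart.

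Across the plant genome, no gene passed the test between strain 182 and strain 89. Of the 25579 plant genes tested on DZA, 0 had an adjusted p under 0.05 by edgeR's quasi-likelihood test with Benjamini-Hochberg adjustment (0% of genes tested, smallest adjusted p = 0.621). At an unadjusted p under 0.05 there were 1393 genes (5.45% of those tested), 656 higher in strain 182 (2.56%) and 737 lower (2.88%). Groups did not overlap for 1847 genes (7.22%). Fewer plants make such separation more frequent, so shares from 3 against 4 plants cannot be compared directly with those from 4 against 4 below. With limma-voom 0 genes were called, while DESeq2 called 174 (0.680%), of which 44 were higher and 130 lower in strain 182. All 174 had the same sign by edgeR and 173 had an edgeR p under 0.05. The split depended on the scaling: with size factors of the DESeq2 type in edgeR, 454 genes were higher and 960 lower at an unadjusted p under 0.05, and the median log2 fold over all genes was -0.08 in place of 0.02. Without plant 3452, edgeR called 0 genes with 2253 at an unadjusted p under 0.05, and DESeq2 called 378.

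These counts do not show that the 2 strains gave the same nodule transcriptome. The median standard error of the log2 fold was 0.53, and the 95% interval lay within 1 log2 unit of 0 on both sides for 17.3% of genes and within 2 units for 58.5%. For the remaining genes the interval reached 2 log2 units or more on at least one side.

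**Figure D2:**
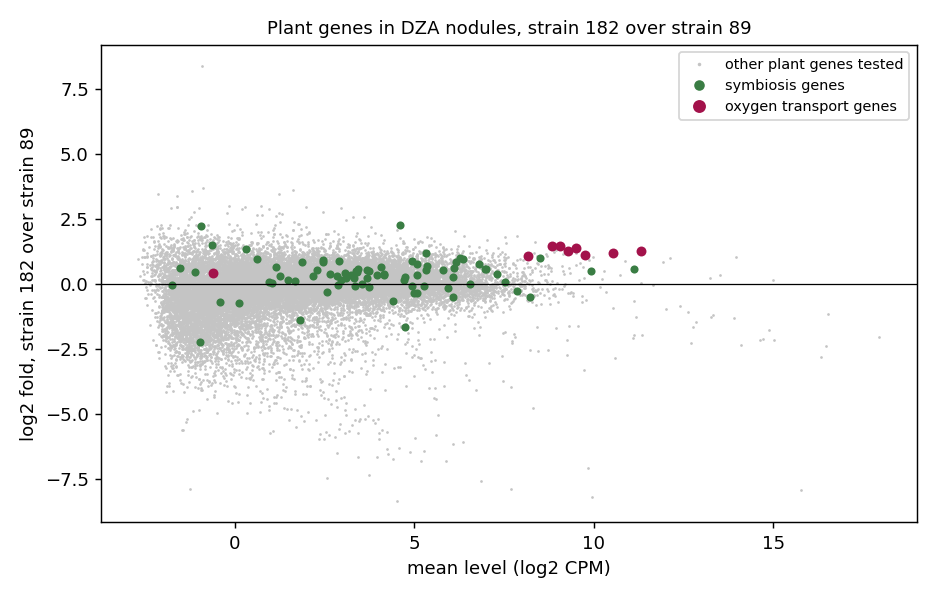
Log2 fold of strain 182 over strain 89 on DZA against the mean level (log2 CPM) for the 25579 plant genes tested, each point a gene. Symbiosis genes are green, oxygen transport genes dark red, other genes grey, and the line marks equal levels. Of the 9 oxygen transport genes, 8 lie together at high level above 1 log2 unit.

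Distances between libraries did not separate the strains. Distance was measured as the root mean square difference in log2 CPM over the genes tested. Pairs within strain 182 had a mean distance of 1.01 (0.866 to 1.23 over 3 pairs), pairs of 1 plant of strain 182 with 1 of strain 89 had 1.48 (0.916 to 2.197 over 12 pairs), and pairs within strain 89 had 1.86 (1.19 to 2.66 over 6 pairs). The plants of strain 182 were thus close to each other, and those of strain 89 were farther from each other than from plants of strain 182. Plants 3452 and 3468 of strain 89 had the longest mean distances to the other libraries (2.23 and 1.74). They also had the fewest plant counts outside their own 10 most abundant genes (5656500 and 4145151, against 10689388 or more elsewhere). The part of sequencing depth in these distances was not tested. Plants 3275, 3446 and 3452 of strain 89 each had a plant of strain 182 as their nearest library, which was plant 3485 for the first 2. The mean distance between strains minus that within strains was -0.10 (one-sided exact permutation test over 35 splits, p = 0.771). Without plant 3452 the pairs between strains had a mean of 1.27 and those within strain 89 had 1.38, and the difference was 0.07 (exact permutation p = 0.20).

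**Figure D3:**
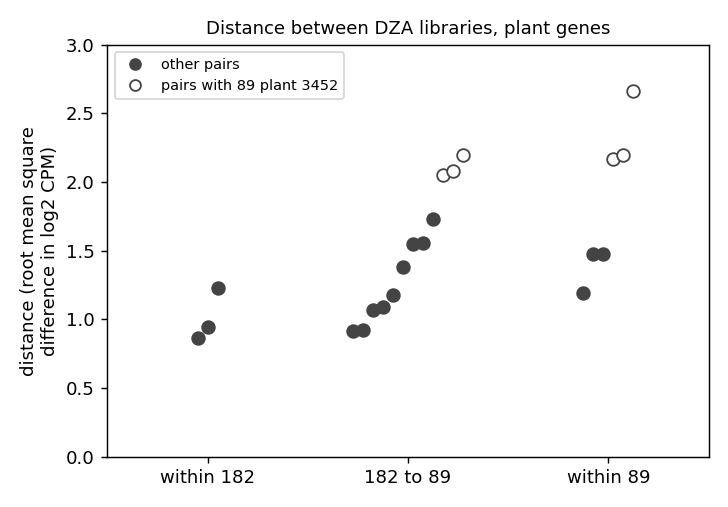
Root mean square difference in log2 CPM between each pair of the 7 DZA libraries, for pairs within strain 182, between the strains and within strain 89. Filled points are pairs of the other 6 plants and open points are pairs with plant 3452 of strain 89, which hold the 6 longest distances; sideways spread only separates points.

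The symbiosis genes were the 84 genes that the study lists for their role in nodulation, of which 79 passed the filter on low counts. None passed the test (edgeR, smallest adjusted p = 0.621). At an unadjusted p under 0.05, 8 were higher and 2 lower in strain 182 (2.56% and 2.88% of all genes tested). Of the 79, 59 had a positive log2 fold (74.7%, against 51.7% of all genes), and their median was 0.37 against 0.02 for all genes. The 95% interval spanned 0 for 69 of them. Summed over the list, the symbiosis genes stood at 6659 to 7690 TMM-scaled CPM with strain 182 and 3913 to 6007 with strain 89. As an unscaled share of plant counts the sum was 0.611 to 1.299% with strain 182 and 0.152 to 1.00% with strain 89, and the strains overlapped. With the log2 ratio of S. meliloti to plant counts as a covariate, the median was 0.16, with 46 of 79 positive, and with size factors of the DESeq2 type it was 0.28, with 57 positive. Each symbiosis gene other than MtMOT1.3 had an edgeR adjusted p of 0.880 or more, so the values below are given as values and not as changes.

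Metal and nutrient transporters had the highest median of the role groups, 0.85 over 9 genes. At an unadjusted p under 0.05, 4 were higher in strain 182 and 0 lower (2.56% and 2.88% of all genes tested). MtMOT1.3 (MtrunA17_Chr3g0105081), a molybdate transporter of nodule cells, stood at 36.9, 37.8 and 59.6 CPM with strain 182, against 6.55, 13.7, 5.52 and 10.4 CPM with strain 89. Every plant of strain 182 lay well above every plant of strain 89. Its log2 fold was 2.30 (SE 0.37, 95% interval 1.46 to 3.13, edgeR adjusted p = 0.621), it lay between 2.01 and 2.49 under the 18 alternatives, and DESeq2 gave an adjusted p of 0.00023. Among the 20 strains on DZA, whose means for MtMOT1.3 ranged over 9.69 to 51.2 CPM with a median of 18.96, strain 182 ranked 1 and strain 89 ranked 20.

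The other transporters of this group were closer together. MtSULTR3.5, a sulfate transporter, had 507, 522 and 495 CPM with strain 182, against 292, 329, 204 and 194 CPM with strain 89. These groups did not overlap, and strain 182 varied little (log2 fold 0.99, SE 0.33, 95% interval 0.25 to 1.74, DESeq2 adjusted p = 0.064). MtZIP6, a zinc transporter, had 11.6, 9.45 and 8.87 CPM with strain 182, against 7.09, 5.37, 3.85 and 5.26 CPM with strain 89 (log2 fold 0.88, SE 0.31, 95% interval 0.19 to 1.57). MtMATE69, of the multidrug and toxic compound extrusion family, had 3.51, 5.70 and 5.25 CPM with strain 182, against 2.11, 2.36, 3.47 and 2.85 CPM with strain 89 (log2 fold 0.85, 95% interval 0.03 to 1.67). MtVTL8/SEN1, which carries iron to the bacteroids, overlapped, at 182, 58.6 and 101 CPM with strain 182 against 81.6, 86.9, 26.7 and 34.4 CPM with strain 89 (log2 fold 0.99, SE 0.51, 95% interval -0.17 to 2.14), and its log2 fold was 0.45 without plant 3305 of strain 182 and 0.13 with the S. meliloti ratio as a covariate. The remaining 4 were the molybdate transporter MtMOT1.2, the phosphate transporter MtPT5, the iron transporter MtNRAMP1 and the metal tolerance protein MtMTP2, with log2 folds of -0.67, -0.34, -0.04 and 0.54.

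**Figure D4:**
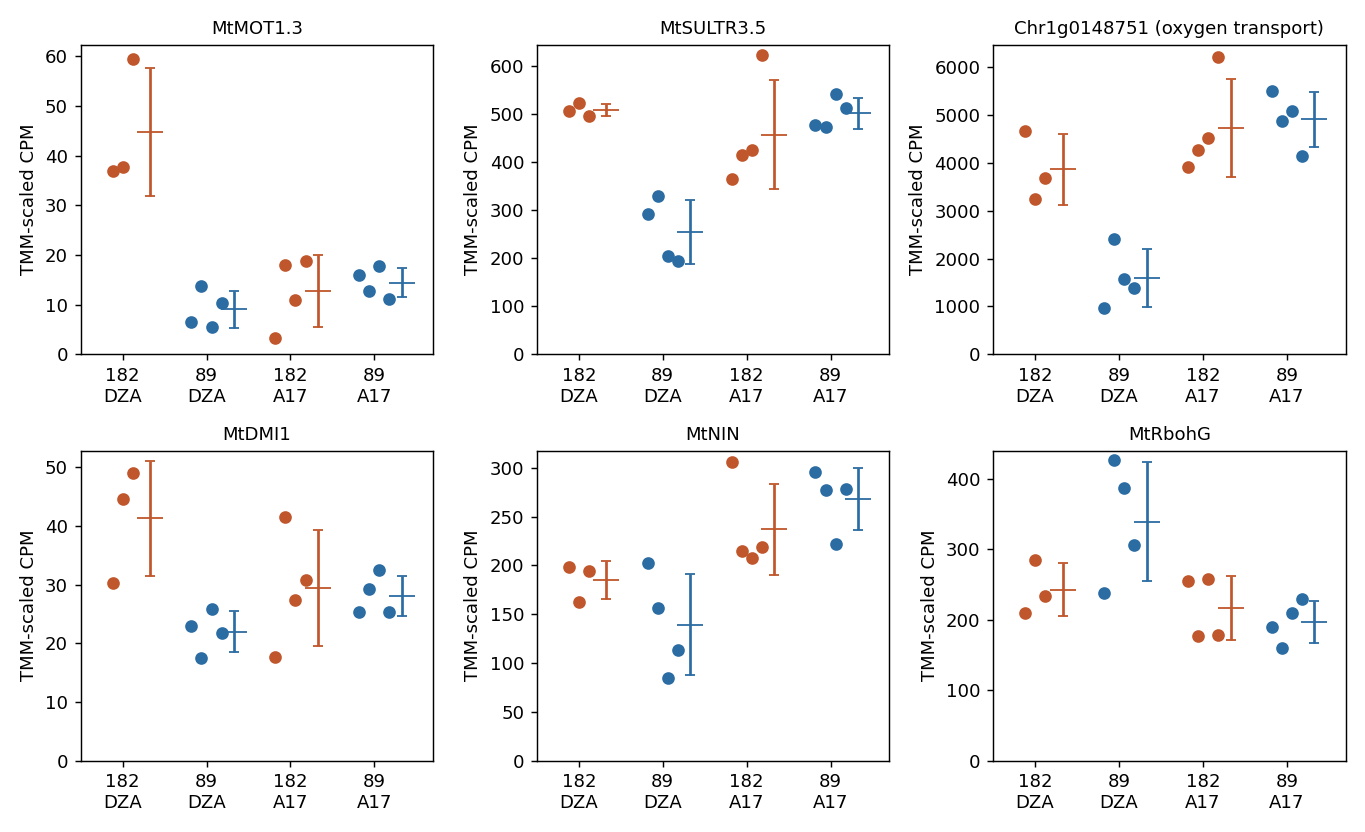
TMM-scaled CPM in each library of strains 182 and 89 on DZA and on A17 for MtMOT1.3, MtSULTR3.5, the most abundant oxygen transport gene, MtDMI1, MtNIN and MtRbohG. Each point is 1 plant, the horizontal line is the mean and the bar 1 SD. On DZA the 3 plants of strain 182 lie above the 4 of strain 89 in MtMOT1.3 (36.9 to 59.6 against 5.52 to 13.7 CPM), and on A17 the strains overlap in all 6 genes.

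The 9 oxygen transport genes had positive log2 folds of strain 182 over strain 89, but none passed edgeR's test. They are genes that share the Gene Ontology term oxygen transport in 1 of the co-expression modules of the study, the term that leghemoglobins carry. The modules were built on means of these same strains, so the list is not independent evidence of its direction, and similar copies within a gene family can share reads. The smallest adjusted p was 0.808 by edgeR, 8 of the 9 had an unadjusted p under 0.05 (0.0024 to 0.035, log2 folds 1.08 to 1.49), against 2.56% of all genes tested in that direction, and DESeq2 called 3, against 0.680% of all genes in either direction. The median was 1.26, beside 0.02 for all genes.

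Summed over the 9 genes, which does not depend on how reads were split among copies, the level was 13282, 9817 and 10939 TMM-scaled CPM with strain 182, against 3381, 6849, 4928 and 3600 with strain 89. All 3 plants of strain 182 lay above all 4 of strain 89 on this scale. As an unscaled share of plant counts, the sum was 2.24, 0.901 and 1.65% with strain 182, against 0.325, 1.23, 0.127 and 0.338% with strain 89, and plant 3446 of strain 89 then lay above plant 3330 of strain 182.

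The most abundant of them, MtrunA17_Chr1g0148751, had 4665, 3233 and 3679 CPM with strain 182, against 967, 2405, 1580 and 1393 CPM with strain 89 (log2 fold 1.28, SE 0.52, 95% interval 0.11 to 2.46). The one with the smallest p, MtrunA17_Chr5g0435611, had 891, 619 and 637 CPM with strain 182, against 204, 358, 247 and 212 CPM with strain 89 (log2 fold 1.49, SE 0.36, 95% interval 0.68 to 2.30, DESeq2 adjusted p = 0.0021). Neither gene overlapped between the strains. Within the series, the 9 genes had a median rank of 1 of 20 strains for strain 182 and 19 for strain 89, where the medians over all genes tested were 9 and 13. With the ratio of S. meliloti to plant counts as a covariate, 8 of 9 were positive, with a median of 0.86 and 2 at an unadjusted p under 0.05. The S. meliloti share, which ran higher in 3 of the 4 plants of strain 89, moves with this list, and its part in the result was not tested further.

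Infection and early signalling genes numbered 18, with 13 positive and a median of 0.48. At an unadjusted p under 0.05, 2 were higher and 1 lower in strain 182 (2.56% and 2.88% of all genes tested). MtDMI1, an ion channel of the nuclear envelope needed for the calcium signal that follows perception of the bacteria, had 30.3, 44.6 and 49.1 CPM with strain 182, against 22.9, 17.5, 25.8 and 21.8 CPM with strain 89. The groups did not overlap (log2 fold 0.91, SE 0.27, 95% interval 0.30 to 1.52). The vapyrin gene MtVPY, which is needed for infection threads and shares its identifier with the flotillin name MtFLOT7, had 46.0, 37.2 and 49.7 CPM with strain 182, against 30.9, 35.3, 18.87 and 18.96 CPM with strain 89 (log2 fold 0.76, SE 0.31, 95% interval 0.08 to 1.45). MtNMN1, a nucleolar and mitochondrial protein linked to nodulation, was near the detection limit, at 0.086 to 0.23 CPM with strain 182 and 0.36 to 1.64 CPM with strain 89 (log2 fold -2.20, SE 0.96, 95% interval -4.35 to -0.05).

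Among the abundant members of the infection group, MtRbohG, MtNIN and MtDMI2 overlapped between strains and MtSYMREM1 did not. MtRbohG, an NADPH oxidase, had 210, 285 and 234 CPM with strain 182, against 238, 427, 387 and 306 CPM with strain 89 (log2 fold -0.48, SE 0.34, 95% interval -1.24 to 0.27). MtNIN, the transcription factor that starts nodule formation, had 199, 162 and 194 CPM with strain 182, against 203, 156, 84.7 and 114 CPM with strain 89 (log2 fold 0.41, SE 0.35, 95% interval -0.37 to 1.19, and 0.21 without plant 3452). MtDMI2, the receptor-like kinase upstream of MtDMI1, had 194, 119 and 156 CPM with strain 182, against 138, 131.6, 79.2 and 67.6 CPM with strain 89 (log2 fold 0.58, SE 0.35, 95% interval -0.20 to 1.37, and 0.38 without plant 3305). In these 3 genes no order of the strains held over all plants. MtSYMREM1, a remorin of the infection thread membrane, had 181, 142 and 140 CPM with strain 182, against 135, 123, 84.6 and 67.2 CPM with strain 89, without overlap (log2 fold 0.59, 95% interval -0.13 to 1.32).

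Genes of the symbiosome and the bacteroid numbered 15, with 12 positive and a median of 0.47. At an unadjusted p under 0.05, 1 gene was higher and 0 lower in strain 182 (2.56% and 2.88% of all genes tested). That gene was MtDNF2, a phosphatidylinositol phospholipase C-like protein without which nodules fail to fix nitrogen, with 90.3, 84.97 and 82.4 CPM with strain 182, against 66.4, 65.8, 41.1 and 47.6 CPM with strain 89 (log2 fold 0.64, SE 0.27, 95% interval 0.02 to 1.25). MtNPD1, a nodule-specific PLAT-domain protein, had 151, 139 and 146 CPM with strain 182, against 110, 125, 55.7 and 52.1 CPM with strain 89 (log2 fold 0.76, SE 0.37, 95% interval -0.07 to 1.58). Strain 182 was higher than every plant of strain 89 in both genes, and its 3 plants were tightly spaced.

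Other genes of that group spread more widely. MtNCR169, a nodule-specific cysteine-rich peptide, had 170, 43.2 and 113 CPM with strain 182, against 28.1, 107, 59.2 and 19.3 CPM with strain 89 (log2 fold 1.02, SE 0.62, 95% interval -0.37 to 2.41, with 0.52 without plant 3305 of strain 182 and 1.54 without plant 3446 of strain 89). MtDNF1, a subunit of the signal peptidase that processes such peptides, had 64.1, 54.3 and 38.5 CPM with strain 182, against 48.5, 27.6, 23.7 and 29.5 CPM with strain 89 (log2 fold 0.69, SE 0.32, 95% interval -0.03 to 1.42). MtZPT2-1, a zinc finger transcription factor and the most abundant of the group, had 126, 225 and 276 CPM with strain 182, against 327, 232, 273 and 162 CPM with strain 89 (log2 fold -0.25, SE 0.38, 95% interval -1.11 to 0.61). Its log2 fold was -0.01 without plant 3305 and -0.52 without plant 3485 of strain 182, and -0.14 without plant 3275 and -0.41 without plant 3468 of strain 89. Each of these 3 genes overlapped between the strains.

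The small groups for nodule number and carbon supply held no gene with an unadjusted p under 0.05. MtTML2, an F-box protein that limits nodule number in autoregulation, had 18.6, 14.9 and 6.72 CPM with strain 182, against 8.88, 7.98, 10.7 and 8.11 CPM with strain 89 (log2 fold 0.59, SE 0.36, 95% interval -0.22 to 1.41, and 0.25 without plant 3305 of strain 182). MtCLE12, a peptide that acts in the same pathway, had a log2 fold of 2.24 (SE 1.09, 95% interval -0.21 to 4.70) at levels of at most 1.14 CPM. MtSUCS1, the sucrose synthase that splits incoming sucrose, had 2796, 2570 and 2856 CPM with strain 182, against 2245, 1679, 2004 and 1340 CPM with strain 89 (log2 fold 0.59, SE 0.46, 95% interval -0.44 to 1.63). Its groups did not overlap, although the test gave a wide error. The non-symbiotic hemoglobin MtPhytogb1.1 had 18.5, 14.1 and 14.9 CPM with strain 182, against 10.4, 44.04, 26.4 and 19.3 CPM with strain 89 (log2 fold -0.66, SE 0.44, 95% interval -1.66 to 0.33).

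Of the 30 tested genes listed without a role that could be assigned to these groups, 22 were positive, with a median of 0.25. A gene related to TRICOT of Lotus japonicus had 48.4, 60.5 and 69.5 CPM with strain 182, against 25.2, 5.33, 39.9 and 32.2 CPM with strain 89 (log2 fold 1.22, SE 0.54, 95% interval 0.00 to 2.43, and 0.80 without plant 3446). MtrunA17_Chr2g0301621, listed without a name, had 12.02, 13.1 and 11.05 CPM with strain 182, against 15.4, 64.6, 48.3 and 23.7 CPM with strain 89 (log2 fold -1.66, SE 0.48, 95% interval -2.73 to -0.58). Its levels with strain 182 fell in a narrow band, below all plants of strain 89.

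The 10 plant genes with the smallest p on DZA were given as values only, since none passed the test. MtMOT1.3 was the third of them and the only one with a name, the files do not pair the other identifiers with names, and 6 of the 10 were higher and 4 lower in strain 182. Their log2 folds were 1.57 to 2.87 and -2.90 to -1.73. Their edgeR p lay between 2.6e-05 and 0.00036, with an adjusted p of 0.621. None overlapped between the groups, where 7.22% of all genes tested did not. All 10 were called by DESeq2 (largest adjusted p 0.0014), against 0.680% of all genes. The 10 were picked by their p in these same libraries, so neither fact is independent support. MtrunA17_Chr8g0340121 had 29.1, 19.9 and 26.0 CPM with strain 182, against 4.26, 6.97, 5.52 and 4.93 CPM with strain 89 (log2 fold 2.199, SE 0.29). MtrunA17_Chr1g0170691 had 21.6, 8.34 and 18.1 CPM with strain 182, against 3.14, 2.99, 2.31 and 3.07 CPM with strain 89 (log2 fold 2.47, SE 0.37). Among the 4 plants of strain 89, levels ran from 4.26 to 6.97 CPM in the first gene and from 2.31 to 3.14 CPM in the second.

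Among genes lower with strain 182, MtrunA17_Chr5g0417741 had 3.87, 3.81 and 4.65 CPM with strain 182, against 13.5, 12.6, 11.8 and 16.5 CPM with strain 89 (log2 fold -1.73, SE 0.29). MtrunA17_Chr1g0182041 had 6.51, 3.22 and 5.69 CPM with strain 182, against 19.4, 23.4, 27.2 and 16.7 CPM with strain 89 (log2 fold -2.07, SE 0.35). For both, strain 89 ranked 1 among the 20 strains and strain 182 ranked 3, where the median strain was at 1.94 and 1.18 CPM.

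The same strains on host A17 were set beside these values. On A17, edgeR called 0 of 25794 plant genes (smallest adjusted p = 1.00), with 274 at an unadjusted p under 0.05 (1.06%) and 267 without overlap (1.04%), and DESeq2 called 1. The standard errors were smaller there, with a median of 0.37, and the 95% interval lay within 1 log2 unit of 0 for 46.3% of genes. Without plant 3514 of strain 89, whose bacterial genes went against its label, edgeR also called 0. The A17 values that follow include plant 3514. MtMOT1.3 had 3.35, 18.04, 10.9 and 18.8 CPM with strain 182 on A17, against 16.0, 12.7, 17.7 and 11.2 CPM with strain 89 on A17 (log2 fold -0.17, SE 0.44). These groups overlapped fully, as did the summed oxygen transport genes, at 7672 to 13013 TMM-scaled CPM with strain 182 and 9398 to 12042 with strain 89.

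The difference between hosts was tested as an interaction, the log2 fold on DZA minus that on A17. Of 30006 genes, edgeR called 0 (smallest adjusted p = 0.252), with 1874 at an unadjusted p under 0.05 (6.25%), and DESeq2 called 49, of which 7 were positive and 42 negative. Without plant 3514, edgeR called 0 as well (smallest adjusted p = 0.819), with 1400 genes at an unadjusted p under 0.05. The values for genes and lists that follow include plant 3514. MtMOT1.3 had an interaction of 2.44 (edgeR adjusted p = 0.796). Of the 9 oxygen transport genes, 7 had an unadjusted p under 0.05 for the interaction, with the same smallest adjusted p of 0.796, and their median log2 fold on A17 was -0.21. The symbiosis genes had a median of -0.10 on A17, with 0 higher and 1 lower at an unadjusted p under 0.05. The share of all genes there was 1.06% in either direction. None of the 8 genes of the 10 above that were tested on A17 had the same sign there. Of all 23317 genes tested on both hosts, 42.3% had the same sign, and the 10 were picked by their p on DZA.

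Strains 282 and 283, a pair with the same genome, served as a second comparison on DZA with 4 plants each. EdgeR called 0 of 23589 plant genes (smallest adjusted p = 0.526), with 832 at an unadjusted p under 0.05 (3.53%) and 606 without overlap (2.57%), and DESeq2 called 23. Strains 182 and 89 on DZA had a larger share of genes at an unadjusted p under 0.05 than this pair (5.45 against 3.53%). These shares were not tested against each other, and genes are not independent replicates.

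The bacterial genes were tested in the same 7 libraries, normalized apart from the plant genes. Of 5712 S. meliloti genes, edgeR called 4 (0.0700%), all higher in strain 182, with 375 at an unadjusted p under 0.05 (6.57%) and 504 without overlap (8.82%), and DESeq2 called 21, of which 19 were higher. WP_010975491.1 had 328, 387 and 328 TMM-scaled CPM of S. meliloti counts with strain 182, against 155, 151, 158 and 166 CPM with strain 89 (log2 fold 1.14, SE 0.10, edgeR adjusted p = 0.0030). WP_003537684.1 had 189, 199 and 173 CPM with strain 182, against 111, 112, 105 and 107 CPM with strain 89 (log2 fold 0.78, SE 0.08, edgeR adjusted p = 0.0088).

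The other called genes were WP_010975488.1, with a log2 fold of 1.28, and WP_010975492.1, with a log2 fold of 1.24 (edgeR adjusted p = 0.0088 each). The strains did not overlap in these 4 genes, where 8.82% of all S. meliloti genes tested did not. The 4 were picked by the test on these same libraries. WP_010975492.1 spread most, with 147, 225 and 192 CPM with strain 182, against 86.3, 79.5, 68.9 and 84.4 CPM with strain 89. With plant 3406 added to strain 182 as labelled, 0 genes were called, and leaving out plant 3330 of strain 182 left 1. On A17 the 4 genes had higher means in strain 182, with log2 folds of 1.39 to 2.54 and large standard errors (0.45 to 0.75). Without plant 3514 of strain 89 the log2 folds were 1.17 to 2.30. Plants of strain 182 differed widely there. WP_010975491.1 had 1280, 542, 201 and 174 CPM with strain 182 on A17, against 122, 130, 127 and 82.5 CPM with strain 89. EdgeR called 0 of 5673 S. meliloti genes on A17, also without plant 3514. At an unadjusted p under 0.05, 31 of the 5673 were higher in strain 182 (0.546%) and 37 lower (0.652%).

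**Figure D5:**
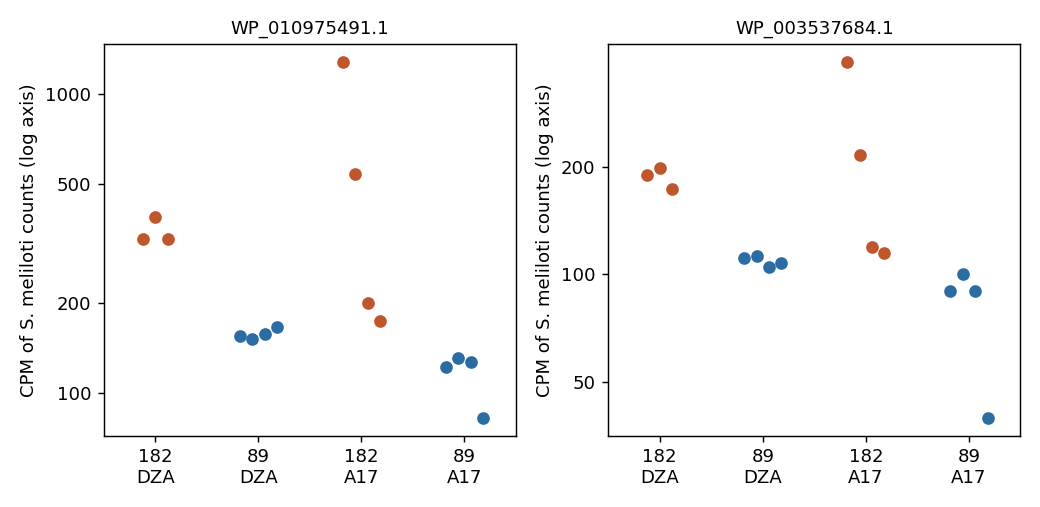
TMM-scaled CPM of S. meliloti counts (log axis) in each library of strains 182 and 89 on DZA and on A17 for WP_010975491.1 and WP_003537684.1, each point 1 plant. On DZA the 3 plants of strain 182 (328 to 387 and 173 to 199 CPM) lie above the 4 of strain 89 (151 to 166 and 105 to 112 CPM), and on A17 strain 182 spreads more widely.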

How the data were processed

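Nodule RNA was sequenced as stranded mRNA libraries on 1 lane. The authors mapped reads with Salmon 1.4.0 to plant (line A17) and S. meliloti (1 reference strain) transcripts together. The plant reference held ribosomal and non-coding RNA besides mRNA. The deposited values are estimated counts per gene, which need not be whole. Counts were rounded, and plant genes (identifiers starting MtrunA17) were separated from S. meliloti genes. Genes with at least 10 counts in 3 of the 7 libraries (4 of 8 elsewhere) were tested with edgeR 4.0.16 in R 4.3.3 (TMM scaling, quasi-likelihood F test, Benjamini-Hochberg adjustment, threshold 0.05). Standard errors are the log2 fold over the square root of F, and intervals are 95%. DESeq2 1.42.0 and limma 3.58.1 were alternatives. Scripts were tested on simulated data. Log2 CPM for distances used a prior count of 2. P-values measure the spread between plants.

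Genes named were those past the threshold, the 10 with the smallest p, list members at an unadjusted p under 0.05 and abundant members of each role group of the symbiosis genes. The members and lists were chosen with earlier results of these data known. The reference table matched 0 plant identifiers, so names come from the study's gene tables.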

Additional observations from a re-analysis of the deposited data

Results flagged for a closer look

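Among 46 sets of 4 values, each 1 measure in 1 group of 4 libraries, 2 had a value far from the other 3. Chance flags about 1 set in 20, so about this many flags arise by chance. Both flags were on plant 3378 of strain 182 on A17, in 2 measures of the same library. It had 58439182 plant counts, against 22417115 to 28102491 in the other 3 plants of its group, and 9.42% of its counts were S. meliloti, against 40.8 to 44.5% in the other 3. Without it, edgeR called 1 plant gene on A17 between strain 182 and strain 89, in place of 0.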

How the results depend on the processing

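The 0 calls by edgeR between strain 182 and strain 89 on DZA held with limma-voom, with the other scaling, with no filter, with the filters over 80 and over all 7 libraries, with all DZA libraries in the fit, with plant 3406, with the covariate, without the 10 most abundant genes and without each of the 7 libraries in turn (706 to 2253 genes at an unadjusted p under 0.05). DESeq2 called 174 genes there, 378 without plant 3452 of strain 89 (chosen after seeing the data), 1 on A17, 23 between strains 282 and 283, 49 in the interaction and 21 among S. meliloti genes. The causes of these differences between tools were not tested. Leaving out 1 library at a time gave 0 to 1 calls on A17, 0 for strains 282 and 283, 1 to 6 among S. meliloti genes on DZA, and -43.1 to -21.2 percentage points for the difference in S. meliloti share. With plant 3406, 0 S. meliloti genes were called and the distance difference was 0.066 in place of -0.10. Leaving out 1 library moved it between -0.286 and 0.071, and it was positive without plants 3275 (0.014), 3446 (0.071) or 3452 (0.071) of strain 89. With the covariate, 10 of 27 named genes moved by over 1.5 times, with log2 folds of -0.038 for MtNCR169, 0.13 for MtVTL8/SEN1, 0.16 for MtDMI2, 0.23 for MtNIN, 0.28 for MtSYMREM1, 0.43 for MtNPD1, 0.48 for MtVPY, -0.10 for MtZPT2-1, -1.14 for MtNMN1 and 2.33 for the gene related to TRICOT. With plant 3406, MtZPT2-1 was at -0.55. The named genes other than MtNCR169 kept their direction under every alternative that gave a value. No paired analysis was possible because the labels give each plant its own number, shared by no other group. The 3 or 4 plants per group and 9730544 plant counts in the thinnest library limit what can be detected.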

Other observations

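Gene groups outside the symbiosis list were read from the study's co-expression modules, which were built on these strains and are not independent of them. Of the 150 tested genes with a Gene Ontology term there, 106 had a positive log2 fold of strain 182 over strain 89 on DZA, with a median of 0.28, and 15 were higher and 3 lower at an unadjusted p under 0.05 by edgeR, where 2.56% of all genes tested were higher and 2.88% lower. Oxygen transport held 8 of those 15. All 14 translation genes were positive (median 0.53, 1 at an unadjusted p under 0.05), the 8 ubiquitin-conjugating genes had a median of 0.46 with none under 0.05, and the 3 nitrate transport genes 0.72 with 1 under 0.05. The 14 acid phosphatase genes had a median of -0.20 and the 6 nucleosome assembly genes -0.35, with none under 0.05. All 4 circadian rhythm genes were negative, with a median of -1.89 and 1 under 0.05. In the phosphate starvation group, 1 gene, MtrunA17_Chr4g0012631, had a log2 fold of -2.16 (edgeR adjusted p = 0.808, DESeq2 adjusted p = 0.0090).

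No organelle gene passed the test. Of 178 mitochondrial genes tested on DZA, 23 had a positive log2 fold, the median was -0.93, and 0 were higher and 25 lower at an unadjusted p under 0.05 by edgeR (smallest adjusted p = 0.880), beside the same 2.56% and 2.88% of all genes. Of 106 plastid genes, 23 were positive, the median was -0.47, and 0 were higher and 1 lower. On A17 the medians were 0.26 and 0.03.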
